A study of Mus musculus with 14 samples.

Results

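The 37 genes described here encode complex II, complex III with cytochrome c, and ATP synthase of the mitochondrial respiratory chain, together with assembly factors of complexes II and III and the inhibitor of ATP synthase, Atpif1. They were taken by name: every probe set whose single gene symbol was Sdha, Sdhb, Sdhc, Sdhd, Sdhaf1, Sdhaf2, Cyc1, Cycs or Atpif1, or began with Uqcr, Uqcc or Atp5. This gave 73 probe sets, and the one with the highest mean signal stood for each gene. All 37 genes passed the filter on low signals and are among the 12944 genes tested. They comprised 4 genes of complex II, 10 of complex III and cytochrome c, 17 subunits of ATP synthase, Atpif1, and 5 assembly factors.

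Subcutaneous white adipose tissue (scWAT) was taken from exercised mice, which had wheel cages for 11 days, and from sedentary mice. All were male C57BL/6 mice of 12 weeks. RNA from 7 exercised and 7 sedentary samples was hybridised to one Affymetrix array each, and the signals analysed are the MAS5 intensities deposited by the authors. The labels do not say whether each array holds a separate mouse, so p-values measure the spread between arrays, which may in part be technical, and 7 arrays a group limit the precision. Exercised array 2 and sedentary array 5 gave the lowest value of their group for most members, and skeletal muscle markers were high on several exercised arrays; results without these arrays and with a muscle covariate are given after the members.

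Complex II oxidises succinate to fumarate and passes the electrons to ubiquinone. Complex III moves electrons from ubiquinol to cytochrome c and pumps protons. ATP synthase lets protons back through its membrane ring to drive ATP synthesis in the F1 head. Atpif1 encodes IF1, a small matrix protein that binds the beta subunits of the F1 head and blocks ATP hydrolysis. Brown and beige adipocytes carry many mitochondria, in which the uncoupling protein Ucp1 returns protons without making ATP, and brown fat of rodents is known for a rich respiratory chain beside little ATP synthase.

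Promoter sequences from RefSeq (GRCm38.p6) were found for 30 of the 37 genes, and 4 are shown as the genes on which the results turn: the inhibitor, the catalytic subunit it acts on, cytochrome c, and the member with the highest difference. Each is the 250 bases before the transcription start, 5′ to 3′ in the direction of the gene. Capitals mark matches to GCGCANGCG, a form of the site of nuclear respiratory factor 1 (NRF1), on either strand. The Atpif1 promoter is chr4:132535415-132535664 on the minus strand, and that of Atp5b is chr10:128083057-128083306 on the plus strand. The Cycs promoter is chr6:50566570-50566819 and that of Uqcrfs1 is chr13:30545317-30545566, both on the minus strand.
Atpif1: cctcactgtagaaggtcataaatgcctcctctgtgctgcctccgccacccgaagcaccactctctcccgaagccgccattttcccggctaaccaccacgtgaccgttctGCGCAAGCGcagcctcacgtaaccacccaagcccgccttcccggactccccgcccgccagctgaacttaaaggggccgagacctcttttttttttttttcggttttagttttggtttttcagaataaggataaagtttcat
Atp5b: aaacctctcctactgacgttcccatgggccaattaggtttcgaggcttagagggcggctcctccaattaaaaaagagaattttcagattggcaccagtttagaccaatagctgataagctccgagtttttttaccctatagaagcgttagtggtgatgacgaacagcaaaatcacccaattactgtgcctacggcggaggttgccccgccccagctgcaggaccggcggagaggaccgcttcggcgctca
Cycs: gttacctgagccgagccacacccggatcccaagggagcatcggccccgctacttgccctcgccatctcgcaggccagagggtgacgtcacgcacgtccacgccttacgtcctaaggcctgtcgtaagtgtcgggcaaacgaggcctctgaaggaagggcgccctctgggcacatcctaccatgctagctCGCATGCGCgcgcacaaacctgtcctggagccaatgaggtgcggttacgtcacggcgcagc
Uqcrfs1: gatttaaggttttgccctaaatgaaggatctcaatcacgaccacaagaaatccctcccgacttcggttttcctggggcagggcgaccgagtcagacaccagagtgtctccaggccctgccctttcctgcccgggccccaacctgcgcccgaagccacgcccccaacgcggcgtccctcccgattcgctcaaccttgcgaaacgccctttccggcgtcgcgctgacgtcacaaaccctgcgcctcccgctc
The NRF1 letters stood in the Atpif1 and Cycs promoters and not in these windows of Atp5b and Uqcrfs1. They occurred in 10 of the 30 member promoters (33.3%), in 11.7% of the promoters of 10394 tested genes and in 5.86% of all 27025 genes in the promoter table. Among members they stood in 6 of 19 called higher and in 3 of 10 not called. The GABP letters CCGGAAG were in 8 of 30 member promoters (26.7%) and in 14.3% of those of the tested genes. The letters TNAAGGTCA of the oestrogen-related receptors were in the Atp5g3 promoter only among members, and AAGATGGCG of YY1 in the Atp5j promoter only; their shares among tested genes were 0.904% and 1.29%. In the Atp5g2 and Atp5k promoters the 2 NRF1 matches, one on each strand, overlap. A match describes the sequence and is not a measured binding site.

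In the comparison of exercised with sedentary scWAT, most transcripts of the 3 enzymes rose and that of the inhibitor fell. A gene was called where its limma p, adjusted by Benjamini-Hochberg over all 12944 genes, was under 0.05. Of the 37 genes, 25 were called higher in exercised scWAT, 1 (Atpif1) lower and 11 not called; over all genes tested, 4.0% were called higher and 1.53% lower. All 4 genes of complex II, all 10 of complex III and cytochrome c, 11 of 17 ATP synthase subunits and 0 of 5 assembly factors were called higher. In 13 of the 37, all 7 exercised values lay above all 7 sedentary values, and in 1, Atpif1, all lay below; over all genes these were 1.95% and 0.734%.

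Differences are given as exercised minus sedentary on the scale of log2(signal + 46.7), which understates the change of dim genes. The median difference was 0.56 for complex II, 0.62 for complex III with cytochrome c, 0.34 for ATP synthase subunits and 0.07 for assembly factors, against -0.03 over all genes tested. The 25 genes called higher had folds of 1.25 to 1.93, and none reached 2-fold. In each of the 25, all 7 exercised arrays lay above the sedentary median. The calls rest on the same values, so this is no separate result. In a bulk tissue, a change in the number of cells of a type and a change in RNA per cell cannot be told apart.

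**Figure D1:**
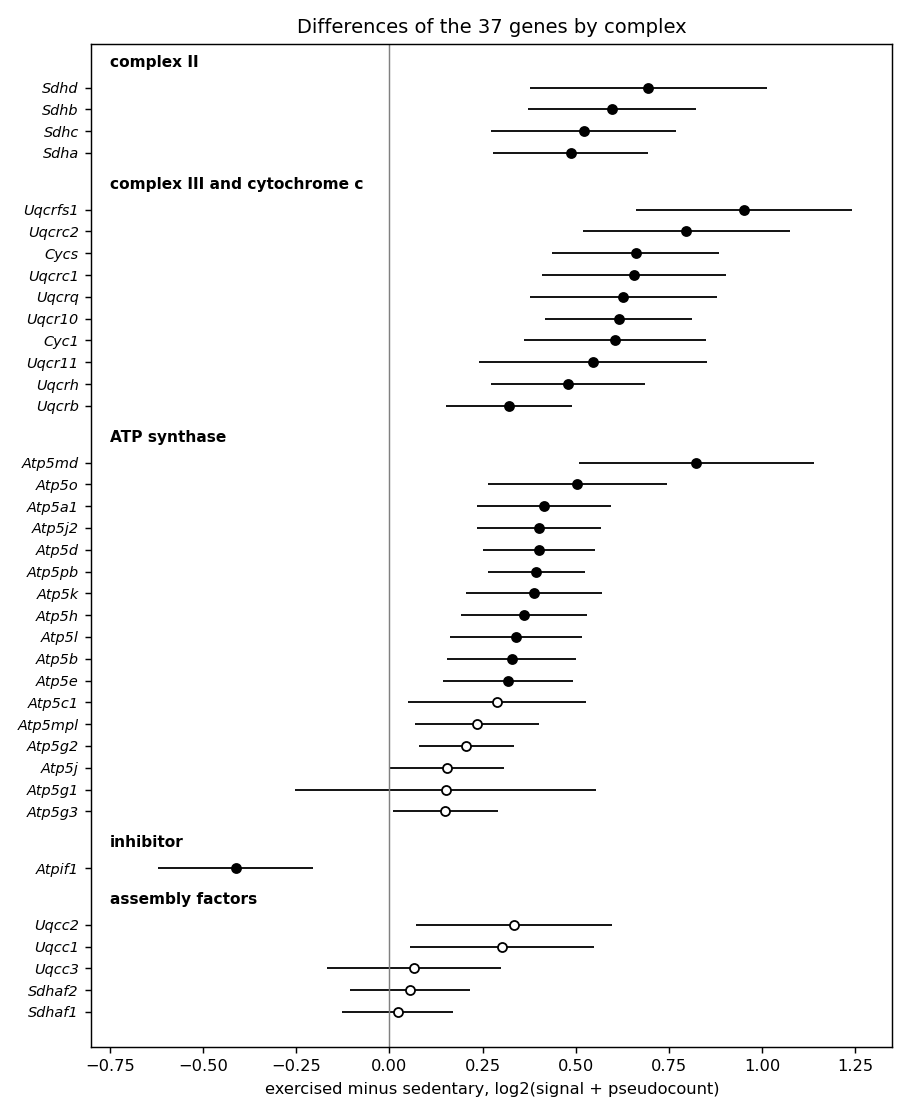
Difference between exercised and sedentary scWAT (log2 scale, 7 arrays a group) for the 37 genes by complex, with 95% confidence intervals; filled points were called by limma and open points were not. Every point but Atpif1, at -0.41, lies above 0, and Uqcrfs1 has the highest difference, 0.95.

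All 4 genes of complex II rose. Sdha, the flavoprotein that oxidises succinate, had a lowest, median and highest signal of 25046, 29194 and 34714 on the exercised arrays, against 16029, 22022 and 24534 on the sedentary arrays. The groups did not overlap, and the difference was 0.49 ± 0.10 (SE; limma adjusted p = 0.0101), the smallest of the complex. Sdhb, the iron-sulphur protein that carries electrons on from Sdha, had 23296, 30758 and 34457 on exercised arrays and 14311, 21209 and 21919 on sedentary arrays. Its groups did not overlap either, with a difference of 0.60 ± 0.11 (SE; limma adjusted p = 0.00526).

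The 2 membrane anchors, which with Sdhb form the ubiquinone site, rose as well. Sdhc signals were 10986, 13783 and 16295 in exercised scWAT, against 7179.9, 9709.9 and 11110.1 in sedentary scWAT. The lowest exercised array lay inside the sedentary range and the other 6 above it, and the difference was 0.52 ± 0.12 (SE; limma adjusted p = 0.0185). Sdhd had the highest difference of the complex, 0.70 ± 0.15 (SE; limma adjusted p = 0.0141), or 1.62-fold. Its signals were 7800.4, 11950.1 and 14202 on exercised arrays and 4837, 6832 and 8084 on sedentary arrays, again with 6 of 7 exercised arrays above every sedentary one.

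All 9 subunit genes of complex III and Cycs rose, and 7 of the 10 had no overlap between the groups. Uqcrfs1, the Rieske iron-sulphur protein that takes the first electron from ubiquinol, had signals of 17892, 24202 and 27879 in exercised scWAT, against 8080.5, 12147 and 15725 in sedentary scWAT. Every exercised array exceeded every sedentary one, and the difference was 0.95 ± 0.14 (SE; limma adjusted p = 0.00208), a 1.93-fold level with a 95% interval of 0.66 to 1.24 on the log2 scale. Cyc1, cytochrome c1, which hands the electron to cytochrome c, had 26668, 29988 and 37687 on exercised arrays and 14736, 20416 and 25782 on sedentary arrays. The groups were separate and differed by 0.61 ± 0.11 (SE; limma adjusted p = 0.00726).

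The core proteins Uqcrc1 and Uqcrc2 face the matrix and are needed to build the complex. Uqcrc1 had signals of 17706, 26647 and 30704 in exercised scWAT and 13234, 16267 and 18023 in sedentary scWAT. In 1 exercised array it lay within the sedentary range, and the difference was 0.66 ± 0.12 (SE; limma adjusted p = 0.00511). Uqcrc2 had 23450.4, 32773 and 36020.3 on exercised arrays and 11836, 18538 and 20874 on sedentary arrays, with no overlap and a difference of 0.80 ± 0.13 (SE; limma adjusted p = 0.00328).

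Among the small subunits, differences were 0.63 for Uqcrq, 0.62 for Uqcr10, 0.55 for Uqcr11, 0.48 for the hinge protein Uqcrh and 0.32 for Uqcrb (limma adjusted p = 0.00248 to 0.0379). Uqcrb, the lowest of the complex, had signals of 49306, 59980.5 and 67467 in exercised scWAT, against 43248, 46005 and 52389.8 in sedentary scWAT, and its highest sedentary array exceeded 1 exercised array. The calls of Uqcrb and Uqcr11 were each lost without any single one of exercised arrays 1, 3, 5, 6 or 7 or sedentary arrays 3 or 4, and that of Uqcr11 also without sedentary array 6; their adjusted p then reached at most 0.0647 and 0.0831.

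Cycs, the soluble carrier that takes electrons from complex III to cytochrome oxidase, had signals of 58038, 69958 and 72778 in exercised scWAT, against 28936, 45513 and 48785 in sedentary scWAT. The lowest exercised array was above the highest sedentary one, and the difference was 0.66 ± 0.11 (SE; limma adjusted p = 0.00304), or 1.58-fold. The values of Cycs and of other members on each array show the separation of the groups.

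**Figure D2:**
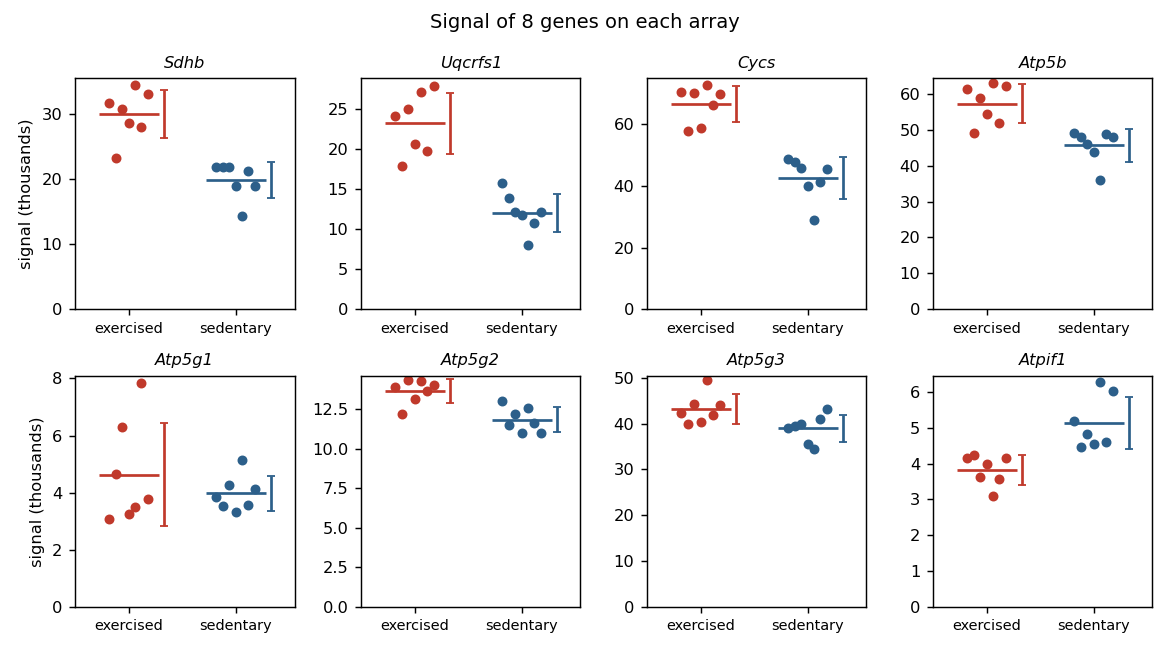
Signal (MAS5 units, scaled down as the axis says) of 8 genes on each of 7 exercised and 7 sedentary arrays, with the mean as a line and the SD as a bar. Sdhb, Uqcrfs1 and Cycs lie higher on all exercised arrays, Atpif1 lies lower on all of them, and the groups overlap in Atp5b and in the subunit c genes Atp5g1, Atp5g2 and Atp5g3.

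In the F1 head of ATP synthase, 4 of 5 genes rose. Atp5a1, the alpha subunit, had signals of 24005, 29928 and 34088 in exercised scWAT, against 18079, 22769.6 and 24311 in sedentary scWAT. Of the exercised arrays 6 lay above all sedentary ones, and the difference was 0.41 ± 0.08 (SE; limma adjusted p = 0.0108). Atp5b, the catalytic beta subunit, had 49109, 58984 and 63042 on exercised arrays and 36118, 47999 and 49176 on sedentary arrays. Its lowest exercised array fell just below the highest sedentary one, and the difference was 0.33 ± 0.08 (SE; limma adjusted p = 0.0305), or 1.25-fold.

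Atp5c1, the gamma subunit that forms the rotating shaft, had signals of 39534, 42063 and 53878 in exercised scWAT, against 23628, 38314 and 40349 in sedentary scWAT. It was not called, with a difference of 0.29 ± 0.11 (SE; limma adjusted p = 0.153) and an interval of 0.05 to 0.53. The delta subunit Atp5d and the epsilon subunit Atp5e of the central stalk had differences of 0.40 (limma adjusted p = 0.0048) and 0.32 (limma adjusted p = 0.036). The call of Atp5b was lost without exercised array 1, 3, 5 or 7 or sedentary array 3 or 4 (adjusted p at most 0.069), and that of Atp5e without exercised array 1, 3, 5, 6 or 7 or sedentary array 3, 4, 5 or 7 (at most 0.078).

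The peripheral stalk holds the F1 head still against the rotor, and 3 of its 4 genes rose. Atp5o, which joins the stalk to the head and confers sensitivity to oligomycin, had signals of 20217, 26085 and 29669 in exercised scWAT, against 12969.8, 19014 and 19944 in sedentary scWAT. The groups did not overlap, and the difference was 0.50 ± 0.11 (SE; limma adjusted p = 0.0178). Subunit b (Atp5pb) rose by 0.39 and subunit d (Atp5h) by 0.36 on the log2 scale (limma adjusted p = 0.00291 and 0.0163). Coupling factor 6 (Atp5j) was not called, with a difference of 0.15 and an adjusted p of 0.22 by limma.

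Subunit c forms the proton-driven ring and is encoded by 3 nuclear genes with one mature protein; 0 of the 3 were called. Atp5g1 had signals of 3075, 3784 and 7833 in exercised scWAT, against 3338, 3858 and 5139.5 in sedentary scWAT. The exercised arrays spread more widely than the sedentary ones, 2 above and 2 below their whole range, and the difference was 0.15 ± 0.19 (SE; limma adjusted p = 0.672) with an interval of -0.25 to 0.55. The 2 highest Atp5g1 signals, 7833 and 6301 on exercised arrays 6 and 3, came from the 2 arrays with the highest mean of skeletal muscle markers. The next highest, 5139.5, came from sedentary array 5, with a marker mean of only 9.53 on the log2 scale. With the marker mean as a covariate the Atp5g1 difference was -0.15 (limma adjusted p = 0.731). A muscle source of the signal was not tested.

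Atp5g2 signals were 12239, 13932 and 14386 in exercised scWAT and 10997, 11657 and 13011 in sedentary scWAT. Although 6 of 7 exercised arrays exceeded all sedentary ones, the difference of 0.21 ± 0.06 (SE; limma adjusted p = 0.057) missed the threshold. It was called without exercised array 2 (adjusted p = 0.0369) and without sedentary array 5 (adjusted p = 0.0401) by limma. Atp5g3 had 39790.5, 42311 and 49581 on exercised arrays and 34380.3, 39552 and 43086 on sedentary arrays, with overlap and a difference of 0.15 ± 0.07 (SE; limma adjusted p = 0.199). At an unadjusted p under 0.05, Atp5g2 and Atp5g3 were higher and Atp5g1 was not; over all genes tested, 11.3% were higher and 10.5% lower at that level. Whether the c ring genes differ in response from the other subunits was not tested.

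The other subunits in the membrane include those that hold ATP synthase dimers together, and 4 of 5 rose. Atp5md, also known as DAPIT or Usmg5, had the highest difference of all ATP synthase genes, 0.82 ± 0.15 (SE; limma adjusted p = 0.00559), or 1.77-fold. Its signals were 9265, 15824 and 17485 in exercised scWAT, against 5579.8, 8215 and 10479.5 in sedentary scWAT, and 6 exercised arrays lay above all sedentary ones. Subunits f (Atp5j2), e (Atp5k) and g (Atp5l) rose by 0.40, 0.39 and 0.34 on the log2 scale (limma adjusted p = 0.00862 to 0.0281). The small proteolipid Atp5mpl was not called, with a difference of 0.23 and an adjusted p of 0.0959 by limma. The call of Atp5l was lost without exercised array 1, 5 or 7 or sedentary array 3 (adjusted p at most 0.0647).

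Atpif1 ran against the subunits of the enzyme it inhibits. Its signals were 3097, 3978 and 4242 in exercised scWAT, against 4469.8, 4819.5 and 6284 in sedentary scWAT, with means of 3833 ± 421 and 5133 ± 738 (SD, n = 7 each). Every exercised array lay below every sedentary array. The difference was -0.41 ± 0.10 (SE; limma adjusted p = 0.0244) with an interval of -0.62 to -0.20, or 0.751-fold. The call was lost without exercised array 3, 5 or 6 (adjusted p = 0.0534, 0.0517 and 0.0512), and when each array was centred on its median (-0.38, adjusted p = 0.0569). It held in 22 of 28 alternative settings, over which the adjusted p ran from 0.0199 to 0.134. A dimmer probe set of Atpif1 differed by -0.23 ± 0.09 (SE; limma adjusted p = 0.148 over all probe sets).

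The relation of Atpif1 to Atp5b, its binding partner, was compared within each array as a difference of log2 values, of which only the change between groups is read. With the sedentary mean at 0, the lowest, median and highest values were -1.18, -0.72 and -0.37 on exercised arrays, against -0.26, -0.09 and 0.63 on sedentary arrays. All 7 exercised arrays lay below all sedentary arrays. The mean change was -0.74 ± 0.15 (SE), a ratio of 0.599-fold, with an exact two-sided permutation p = 0.000583, the smallest that the 3432 assignments of 14 arrays can give. Both genes were also tested singly above, and the ratio rests on the same values.

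Set against each of the 17 subunits in turn, the change of the ratio was negative for every one, with a median of -0.75. That sign follows from the differences above, as Atpif1 fell and every subunit gene had a positive difference, and is no separate result. The change ran from -1.24 with Atp5md to -0.56 with Atp5g3, and in 14 of 17 the groups did not overlap. Atpif1 alone already had no overlap between the groups. With Atp5k and Atp5mpl 6 of 7 exercised arrays lay below all sedentary arrays, and with Atp5g1 5 of 7 did.

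**Figure D3:**
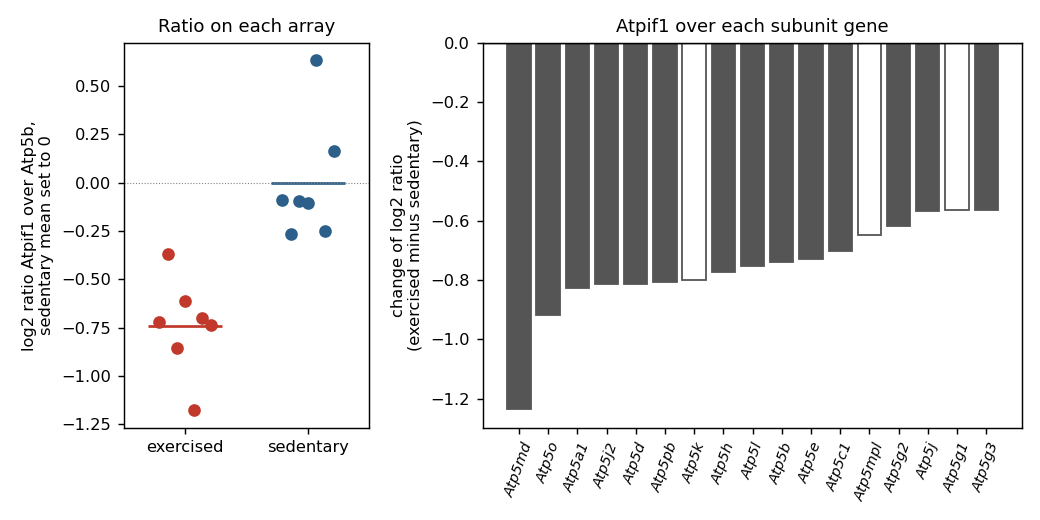
Left, log2 ratio of Atpif1 to Atp5b on each of 7 exercised and 7 sedentary arrays, with the sedentary mean at 0; right, the change of the log2 ratio of Atpif1 to each of 17 ATP synthase subunits, filled where the groups do not overlap. Exercised arrays run from -1.18 to -0.37 and sedentary arrays from -0.26 to 0.63, and all 17 changes lie below 0.

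The 5 assembly factors were not called, and a difference between them and the subunits was not tested. For complex II, Sdhaf1, which helps place iron-sulphur clusters in Sdhb, had signals of 2503, 2696 and 2771 in exercised scWAT, against 2395, 2539.5 and 3164 in sedentary scWAT. The exercised values lay within the sedentary range, and the difference was 0.02 ± 0.07 (SE; limma adjusted p = 0.881) with an interval of -0.13 to 0.17. Sdhaf2, needed to attach the flavin to Sdha, differed by 0.06 (limma adjusted p = 0.697).

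Uqcc2, which acts early in complex III assembly with cytochrome b, had the highest difference of the factors. Its signals were 7158, 9326 and 9962 in exercised scWAT and 5271, 6544 and 8964 in sedentary scWAT, with overlap, and the difference was 0.33 ± 0.12 (SE; limma adjusted p = 0.133). Its partner Uqcc1 differed by 0.30 and Uqcc3 by 0.07 (limma adjusted p = 0.145 and 0.755). Limma at an unadjusted p under 0.05 had 2 of the 5 higher, Uqcc1 and Uqcc2, and 0 lower, beside 11.3% higher and 10.5% lower of all genes; 0 of the 5 were called in any of 28 alternative settings.

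Of 13 further partners of these enzymes, 11 were tested, and 3 were called higher and 0 lower, with a median difference of 0.35. Hccs, which attaches haem to cytochrome c and cytochrome c1, differed by 0.41 ± 0.11 (SE; limma adjusted p = 0.0425). Tmem70, an assembly factor of ATP synthase, differed by 0.39 ± 0.10 (SE; limma adjusted p = 0.0402). Bcs1l, which inserts the Rieske protein into complex III, differed by 0.35 ± 0.10 (SE; limma adjusted p = 0.0479). The F1 assembly factors Atpaf1 and Atpaf2 were not called, at 0.24 and 0.59, and neither were the adenine nucleotide carriers Slc25a4, at 0.50, and Slc25a5, at 0.21, or the phosphate carrier Slc25a3, at 0.10.

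Beside these, 30 of 43 complex I genes (symbols starting with Nduf) were called higher with a median difference of 0.46, and 8 of 15 complex IV subunits with a median of 0.35; 0 were called lower in either. Differences between the complexes were not tested.

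Averages over each enzyme's genes separated the groups. The same genes were tested singly above, so the separation is no separate result. Averaged over the 10 genes of complex III and cytochrome c, and taken from the sedentary mean, the lowest, median and highest log2 values were 0.33, 0.67 and 0.82 on exercised arrays, against -0.45, 0.03 and 0.22 on sedentary arrays. For ATP synthase subunits they were 0.15, 0.37 and 0.49 on exercised arrays, against -0.21, 0.07 and 0.10 on sedentary arrays. For complex II they were 0.24, 0.63 and 0.84 on exercised arrays, against -0.42, 0.07 and 0.20 on sedentary arrays. In all 3 the groups were separate, and the 5 assembly factors, from -0.01 to 0.26 on exercised arrays and from -0.20 to 0.11 on sedentary arrays, overlapped.

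The same arrays stood at the ends. Exercised array 2 gave the lowest exercised value for 28 of the 37 members, and sedentary array 5 gave the lowest sedentary value for 28. Exercised array 2 also had the lowest Ucp1 signal of the exercised arrays, 10273, against an exercised median of 33612 and a highest sedentary signal of 9989. In Atpif1 the order turned: sedentary array 5 was highest and exercised array 5 lowest. Without sedentary array 5, the counts called higher were 4, 10 and 11 for complex II, complex III with cytochrome c and ATP synthase, Atpif1 differed by -0.36 (limma adjusted p = 0.0315), and the change of its ratio to Atp5b was -0.63 (exact permutation p = 0.00117). Without exercised array 2, 26 members were called higher and Atpif1 lower, Atp5g2 being the one added.

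**Figure D4:**
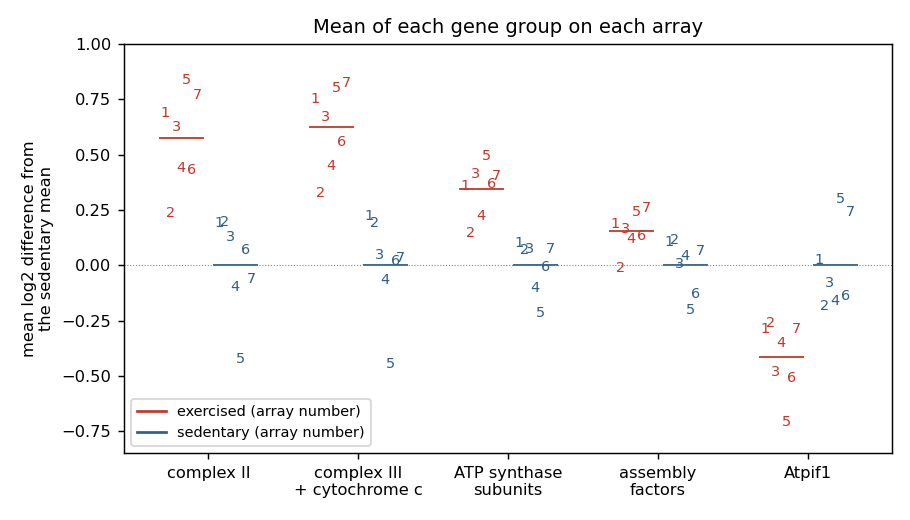
Mean log2 difference from the sedentary mean of each gene group on each array, numbered 1 to 7 within the 7 exercised and 7 sedentary arrays. Exercised arrays lie above sedentary arrays for complex II, complex III and ATP synthase. Exercised array 2 and sedentary array 5 give the lowest values of their groups in every column but Atpif1, where they give the highest.

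Markers of other cells were read on the same arrays. The tissue showed the markers of white adipocytes: 8 of 10 were on the array, the lowest with a mean signal of 7226. Their summed signals were 290090 to 372536 on exercised arrays and 216388 to 353595 on sedentary arrays. Limma called 0 of the 8, and their differences ran from -1.41 to 0.52, with 7 above 0 and 1 below. At an unadjusted limma p under 0.05, 3 were higher and 1 lower, beside 11.3% and 10.5% of all genes. For brown and beige adipocytes 5 of 7 tested markers were called higher, beside 4.0% of all genes tested. Their sums were 51240 to 157425 on exercised arrays and 4610.0 to 51338 on sedentary arrays. This list holds Cox7a1 and Cox8b, which are also in the list of complex IV subunits, so the counts of those lists are not independent. Of 8 macrophage markers 1 was called lower, as was 1 of 5 epithelial markers, and 0 of 7 lymphocyte markers were called. All 8 macrophage and all 7 lymphocyte differences lay below 0 (medians -0.25 and -0.64), as did 3 of the 5 epithelial ones and 7122 of the 12944 genes tested. Lymphocyte sums varied widely, from 2356 to 39098 on exercised arrays and from 2758 to 77322 on sedentary arrays.

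Skeletal muscle markers varied widely among the arrays. All 20 were on the array, none at 0, with a summed signal of 13867 to 890423 (median 444548) on exercised arrays, against 11036 to 338201 (median 18574) on sedentary arrays. None of the 20 was called by limma, 15 were higher at an unadjusted p under 0.05 (11.3% of all genes were), and each of the 20 differences lay above 0, the median being 2.75. Exercised arrays 1, 4 and 5, with mean marker values of 9.17, 8.84 and 12.21 on the log2 scale, lay within the sedentary range of 8.51 to 13.29. Exercised array 5 did so only through sedentary array 3, at 13.29, and lay above every other sedentary array. On exercised arrays 1, 4 and 5 the complex III mean was 0.75, 0.45 and 0.80, and the ATP synthase mean 0.36, 0.22 and 0.49. The highest sedentary values were 0.22 and 0.10. The part of muscle RNA in these means was not tested.

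With the muscle mean as a covariate, 11 members were called higher and 0 lower by limma: Sdhb in complex II, 7 of complex III and cytochrome c, and Atp5d, Atp5pb and Atp5md. Over all genes tested that fit called 1.46% higher and 0.309% lower, 229 genes against 716 without the covariate. The median difference of the 37 members was 0.38 with the covariate and 0.39 without it, and their median standard error 0.118 and 0.0978. Uqcrfs1 differed by 0.93 (adjusted p = 0.0156) and Cycs by 0.62 (adjusted p = 0.0278), and Atpif1 by -0.38 (adjusted p = 0.134), all by limma with that covariate. The part of the brown and beige adipocyte markers in the members' differences was not tested.

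**Figure D5:**
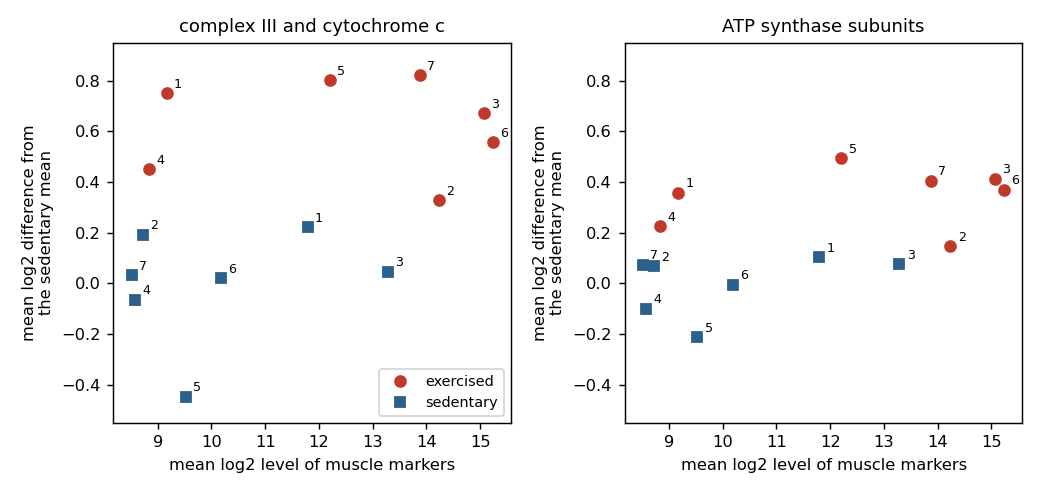
Mean log2 signal of 20 skeletal muscle markers (horizontal) and the mean log2 difference from the sedentary mean (vertical) of complex III with cytochrome c and of ATP synthase subunits, on 7 exercised arrays (circles) and 7 sedentary arrays (squares). Exercised arrays 1, 4 and 5, at 9.17, 8.84 and 12.21, lie within the sedentary range on the horizontal axis and above all sedentary arrays on the vertical axis. Exercised array 5 lies within that range only through sedentary array 3.

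The 36 further probe sets of the members gave a second reading. Of these 29 passed the filter, 27 had the sign of the probe set used, and 16 were called higher and 0 lower in a fit of 27022 probe sets, which called 2.78% of all higher and 1.05% lower. The 2 of opposite sign were dim probe sets of Atp5c1 (-0.09) and Atp5g2 (-0.04). Of the 29, 14 differed by more than the probe set used, such as those of Uqcr10 (0.88 and 0.93, against 0.62), Sdha (0.71, against 0.49), Cycs (0.73 and 0.86, against 0.66) and Uqcrb (0.51, against 0.32). Others differed by less and were not called. Among them were those of Sdhc (0.11, against 0.52) and Atp5h (0.20, against 0.36), and dim ones of Uqcrq (0.09, against 0.63) and Sdha (0.05, against 0.49). The limma adjusted p of these ran from 0.275 to 0.798. When each gene's probe sets were averaged, the calls of Sdhc (0.32, adjusted p = 0.114), Atp5a1 (0.39, adjusted p = 0.134) and Atp5h (0.28, adjusted p = 0.0735) were lost in limma. In 7 of the 37 the probe set used has a suffix that Affymetrix gives to probes matching several transcripts, so that related genes or pseudogenes may contribute to those signals.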

How the data were processed

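Signals of scWAT from 7 exercised and 7 sedentary samples on Affymetrix arrays were analysed. The deposited values are MAS5 intensities, per the submitters' processing notes and the file's values; no source used here gives the MAS5 version or settings. The mean without the lowest and highest 2% was 1500 on every array, and array medians were 531.3 to 617.4. The platform table gave 34945 probe sets with 1 gene symbol, 932 with several and 9160 with none; 64 control probe sets were left out, and 34741 symbols matched the GRCm38.p6 RefSeq table by Entrez ID.

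Signals were analysed as log2(intensity + 46.7), the offset being the 10th percentile of all values. Probe sets needed a mean of at least 389.8 (the 40th percentile of means), and 1 probe set per gene, with the highest mean, left 12944 genes. limma 3.58.1 in R 4.3.3 (lmFit, eBayes with a variance trend, two-sided) compared the groups with p-values adjusted by Benjamini-Hochberg across the 12944 genes and called under 0.05. Atpif1 minus Atp5b was tested by an exact permutation of arrays. Motifs were searched in Python 3.11.15 and figures drawn with matplotlib 3.10.9. The fits were checked on simulated data. No 2 arrays held the same values; correlations between arrays were 0.798 to 0.974.

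The members and gene lists were chosen with earlier results of these data known. All members are named, with array values for a panel chosen by role and for the highest and lowest difference of each group; partner genes are given as counts with the values of those called, and 5 carriers and factors not called were named after their values were seen. Alternatives changed the normalization, offset, filter, choice of probe sets, variance trend, weights and covariates, or left out arrays.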

Additional observations from a re-analysis of the deposited data

Results flagged for a closer look

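In 8 of the 74 sets of 7 values examined (37 genes in 2 groups), one array stood apart. Its gap to the nearest array, as a share of the group's range on the log2 scale of the fits, was above 0.568. Shares below are on that scale, beside untransformed signals. Chance alone gives such a gap in about 1 of 20 sets. The 74 sets share the same arrays and are not independent, so their count cannot be set against that rate. Sedentary array 5 was the low one in 6 of the 8. There Sdhb had a signal of 14311, against 18855 on the nearest array (share 0.647), Cycs 28936 against 39953 (0.618) and Uqcrq 8657 against 12114 (0.596). In ATP synthase it was low for Atp5b, 36118 against 43759 (0.622), for Atp5c1, 23629 against 32853 (0.616), and for Atp5l, 15833 against 19698 (0.64). Exercised array 5 was high for Atp5c1, 53878 against 42895 (0.736), and exercised array 2 low for Atp5md, 9265 against 13510.0 (0.594).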

How the results depend on the processing

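In 28 alternative settings no difference that had been called changed sign. Uqcrfs1, Uqcrc1, Uqcrc2, Uqcrq, Uqcr10, Cycs, Atp5pb and Atp5md were called in all 28. The change of Atpif1 minus Atp5b stayed past the threshold in all 21 run for it (-0.80 to -0.58, exact permutation p = 0.000583 to 0.0156). The highest p is from a permutation of signs within replicate numbers and is the smallest that permutation can give. Leaving out arrays cannot make separated groups overlap. The p-values of those runs therefore follow from the separation and the number of assignments, and are no separate support. The change of Atpif1 minus Atp5b was not run with the muscle marker or Gapdh 3'/5' covariates. Leaving out 1 array at a time gave 4 complex II genes called, 8 to 10 of complex III and cytochrome c, 8 to 12 ATP synthase subunits and 0 assembly factors, and Atpif1 differences of -0.44 to -0.36. With the muscle covariate the counts were 1 for complex II and 3 for ATP synthase, with the Gapdh 3'/5' signal ratio as covariate 5 for ATP synthase; all genes called fell to 229 and 399, against 716, while the members' median difference was 0.38 in both fits, against 0.39; the ratio ran from -0.49 to -0.34 on exercised and from -0.53 to -0.33 on sedentary arrays (log2). Atpif1 missed the threshold under array median centring (-0.38, adjusted p = 0.0569) and with the muscle covariate (-0.38, adjusted p = 0.134); the cause was not tested. Deviations of same-numbered arrays correlated above 0.1 for 3 of 7 replicate numbers (-0.425 to 0.381). For numbers 3, 4 and 7 the same-numbered array was also the closest match. The labels do not say whether the numbers pair the arrays, and these correlations cannot decide it. With the replicate number as a block, limma called 0, 6 and 2 genes of the 3 enzymes and Atpif1 was -0.41 (adjusted p = 0.101); 161 genes were called in all, against 716 without it. Without a filter 21 members were called higher, and with quantile normalization 20, against 25. The offset understates changes of dim genes, and 7 arrays a group limit the precision.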
